A study of Mus musculus with 14 samples.

Results

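Small nucleolar and other structured noncoding RNAs were followed here in mouse tumor-derived cells with and without a guide RNA against Nsd3, a histone H3 lysine 36 methyltransferase. Members were genes whose symbols begin with Snord, Snora, Scarna, Rnu and a digit, Rn7s and a digit, Rprl or Rny, together with Rmrp and Rpph1. A member also had to lie above the lowest deposited value in all 6 RNA libraries, which means at least 1 read in each. Of 174 matching symbols 73 met this rule, out of 55433 genes in the table, and 80 had 0 reads in all 6 libraries. Members were thus chosen by detection in each library and not by the difference between the conditions, but with earlier results of these data known. The cells were of the C57BL/6 strain at passages 6 to 8, and both conditions were treated with a guide RNA, a control guide (sgControl) or one against Nsd3 (sgNSD3). The total RNA libraries numbered 3 for each condition and held 20294828 to 21863833 counts each. The labels name no tumor type, no clone and no separate cultures. The p-values therefore cover only library-to-library spread, which may be technical. The fit used (limma) also draws each gene's spread toward that of genes at a like level. Its SE and p-values can thus be smaller than a member's own libraries would give.

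Structured noncoding RNAs work as the RNA part of ribonucleoprotein machines. Box C/D small nucleolar RNAs (snoRNAs) guide 2′-O-methylation and box H/ACA snoRNAs guide pseudouridylation of ribosomal RNA, and in mammals most are cut from introns of host genes. Small Cajal body RNAs (scaRNAs) do the same for spliceosomal RNAs, while RNase P RNA processes tRNA ends, RNase MRP RNA acts on ribosomal RNA precursors and 7SL RNA is the scaffold of the signal recognition particle.

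The labels were first checked on Nsd3 itself. It had 14611, 14444 and 14717 normalized counts (counts divided by the size factor implied for each library) in sgControl and 22053, 22076 and 21900.5 in sgNSD3. The libraries labelled sgNSD3 thus held 1.51-fold more Nsd3 RNA (limma adjusted p = 5.79e-14), which goes against a loss of the RNA. A gene-level value cannot tell an edited transcript from an intact one, so the conditions are called here by their labels, and sgNSD3 below means the libraries labelled sgNSD3. The sgControl libraries also differed more among themselves than the sgNSD3 libraries did, with a chi-square per degree of freedom over gene counts of 2.70 to 8.92 against 1.30 to 1.41, and 6.66 to 7.497 between conditions. Mesenchymal markers were present in full (8 of 8 with a mean of at least 8 normalized counts, summed 1078820 to 1164810 in sgControl and 1222380 to 1231110 in sgNSD3). Of 6 simple epithelial markers 3 reached that mean, summed 4067 to 4579 and 2944 to 2960.1, with Epcam at 0. Of 7 squamous and basal markers 2 did, summed 223 to 272 and 155 to 184, with Dsg3 at 0. Of 5 immune markers 1 did, summed 71.2 to 86.4 and 61.2 to 74.5, with Adgre1 and Cd3e at 0, and of 4 endothelial markers 2 did, summed 120.1 to 145 and 198 to 238. The part of these markers in the results was not tested.

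The most abundant RNAs of this set, which also lie in no other annotated gene, were lower in the libraries labelled sgNSD3. The rarer box C/D snoRNAs with Snord symbols showed no common change. Level and position could not be told apart. Of the 73 members, 46 had a mean of at least 8 normalized counts and were tested among 18278 genes, while the other 27, with means of 2.35 to 7.95, were not tested. Of these 46, 7 fell and 0 rose (limma on the deposited log2 values, Benjamini-Hochberg adjusted p threshold 0.05), against 6.43% of all tested genes lower and 5.43% higher. At an unadjusted p under 0.05, 8 members were lower and 2 higher. The share of all genes at that threshold is not given here, so this count has no reference. Limma voom on the recovered counts called 6 lower and 0 higher, as did the deposited values without the filter on low counts, where 3.11% of 32287 genes were lower and 2.58% higher. The 7 that fell were Rprl3, Rn7s2, Rn7s1, Rmrp, Scarna2, Scarna13 and Snora73b. Among all members, 42 had a lower and 31 a higher mean in sgNSD3. The lower share was 57.5%, beside 49.9% of genes detected in all libraries.

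The most abundant members carried most of the calls. All 4 members with a mean of at least 1000 normalized counts fell, where 13.9% of 3974 genes at that level were called lower and 8.96% higher. Of 2 members between 100 and 1000 normalized counts, Scarna2 fell and Snora31 was not called, beside 6.34% of genes lower and 5.42% higher. Of the 40 tested members with a mean of 8 to 100 normalized counts 2 fell, or 5%, and 0 rose, against 2.4% of genes lower and 3.49% higher at that level. The conditions did not overlap for 11 members in the lower direction and 4 in the higher, or 15 of 73, where 12.7% of genes detected in all libraries lay wholly lower and 12.7% wholly higher. The plot of difference against level shows the intervals widening toward low counts.

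**Figure D1:**
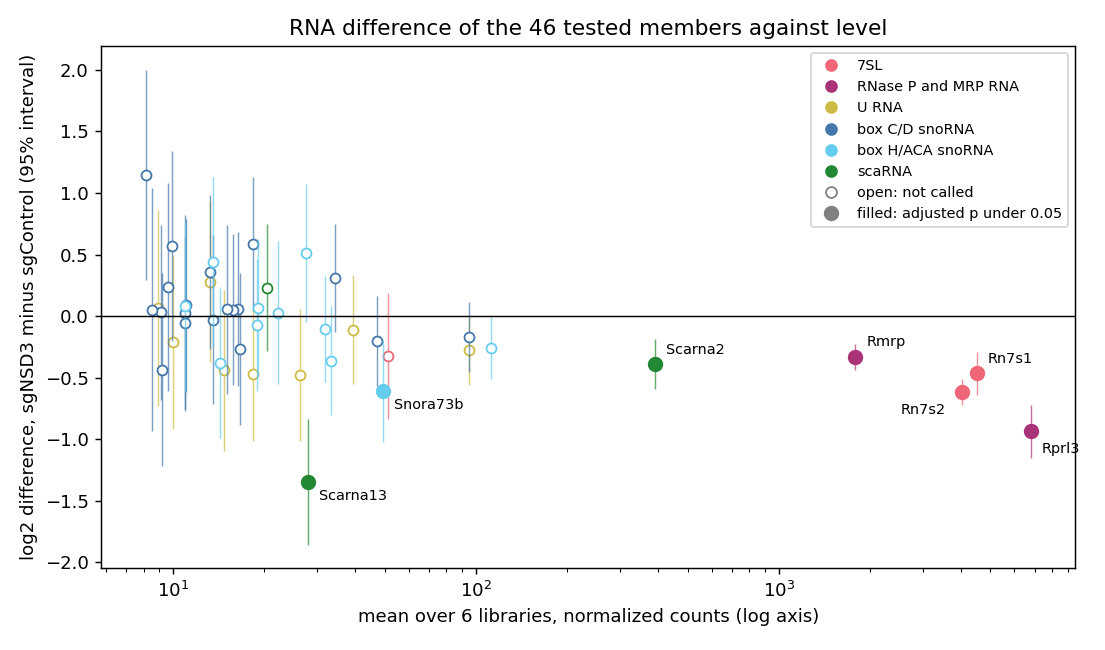
Log2 difference, sgNSD3 minus sgControl, of the 46 tested members on log2(normalized count + 1) with limma's 95% interval, against mean normalized counts on a log axis and coloured by class. The filled points are the 7 members that fell, and 5 of them lie to the right of all 39 open points, which were not called.

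The strongest fall by size among abundant members was that of Rprl3, a gene named RNase P RNA-like 3 and classed as RNase P RNA in RefSeq (chromosome 8, 3803125 to 3803359, GRCm38.p6; no other RefSeq gene spans it). Its normalized counts in replicates 1 to 3, the order kept throughout, were 10619.5, 9668 and 6615 in sgControl and 5449.7, 4385 and 4046 in sgNSD3. Every sgNSD3 library lay below every sgControl library, although sgControl replicate 3 stood well below the other two. The means were 8968 ± 2092 and 4627 ± 732 (SD, n = 3 each), a 1.94-fold lower level and a log2 difference of -0.94 ± 0.104 (SE; limma adjusted p = 3.54e-07).

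Rmrp, the RNA of RNase MRP (chromosome 4, 43492785 to 43493059; no spanning gene), fell less. Its normalized counts were 2187, 1934 and 1870 in sgControl and 1594, 1486 and 1681 in sgNSD3, with no overlap. Means of 1997 ± 168 and 1587 ± 98.0 (SD, n = 3) gave a 1.26-fold lower level and a log2 difference of -0.33 ± 0.0508 (SE; limma adjusted p = 4.25e-05). The ratio of Rprl3 to Rmrp was 3.54 to 4.9995 in sgControl and 2.41 to 3.42 in sgNSD3, so each sgNSD3 library had less Rprl3 relative to Rmrp than any sgControl library. Rprl2, a further RNase P-like gene, had only 0.962 to 5.09 normalized counts per library and was not tested. Rpph1, the gene of the RNase P RNA itself, was listed at 0 counts in all 6 libraries. No source used here says whether reads of near-identical copies were shared out or discarded. Levels of RNase P-like, 7SL and U3 (Rnu3) genes are therefore uncertain.

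Rn7s1 and Rn7s2 fell, 2 of the 3 tested members classed as 7SL, beside 6.43% of all tested genes lower. Rn7s2 (chromosome 12, 69361183 to 69361481) had 5420, 4910 and 4327 normalized counts in sgControl and 3363, 3132 and 3027 in sgNSD3. Its level was 1.54-fold lower, from 4886 ± 547 to 3174 ± 172 (SD, n = 3), a log2 difference of -0.62 ± 0.0523 (SE; limma adjusted p = 4.04e-09). Rn7s1, a neighbour on the same chromosome (69159295 to 69159593), had 6559, 4461 and 4758 normalized counts in sgControl and 4230, 3353 and 3722 in sgNSD3. The conditions did not overlap, but the lowest sgControl library (replicate 2) and the highest sgNSD3 library (replicate 1) were close. Rn7s1 was 1.40-fold lower, from 5259 ± 1135 to 3768 ± 440 (SD, n = 3), with a log2 difference of -0.47 ± 0.086 (SE; limma adjusted p = 0.000391). That SE was drawn toward the spread of other genes, so the call rests in part on them. For Rn7s1 the difference on the deposited log2 scale, which compresses changes of low genes, was -0.41. It was -0.26 without sgControl replicate 1, its highest library. The ratio of Rn7s1 to Rn7s2 was 1.07 ± 0.153 in sgControl and 1.19 ± 0.101 in sgNSD3 (SD, n = 3), overlapping between conditions. Rn7s6, which had no RefSeq match, was much rarer, at 33.6 to 77.5 normalized counts in sgControl and 32.7 to 62.2 in sgNSD3. Its 95% interval of the log2 difference, -0.83 to 0.19, included 0.

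Of the 3 tested scaRNAs 2 fell and 0 rose, beside 6.43% of all tested genes lower and 5.43% higher. Scarna13 (chromosome 12, 105031075 to 105031349, inside the RefSeq span of Snhg10) showed the largest proportional fall of any tested member. It had 47.1, 33.6 and 40.7 normalized counts in sgControl and 11.4, 16.3 and 18.6 in sgNSD3, with a wide gap between the conditions. The means were 40.5 ± 6.78 and 15.5 ± 3.69 (SD, n = 3), a 2.62-fold lower level and a log2 difference of -1.35 ± 0.246 (SE; limma adjusted p = 0.00033). Scarna2 (chromosome 3, 108554342 to 108554402; no spanning gene) had 514, 463 and 358 normalized counts in sgControl and 371, 292 and 347 in sgNSD3. The conditions overlapped, since sgControl replicate 3 lay below sgNSD3 replicate 1. Scarna2 was 1.32-fold lower, with a log2 difference of -0.39 ± 0.0988 (SE; limma adjusted p = 0.00804). Leaving out sgControl replicate 1 (limma adjusted p = 0.0531) or sgNSD3 replicate 2 (0.0945) ended its call. Scarna6 was not called, at 16.8 to 21.1 normalized counts in sgControl and 20.7 to 24.5 in sgNSD3. Scarna9 averaged 3.34 normalized counts and was not tested.

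**Figure D2:**
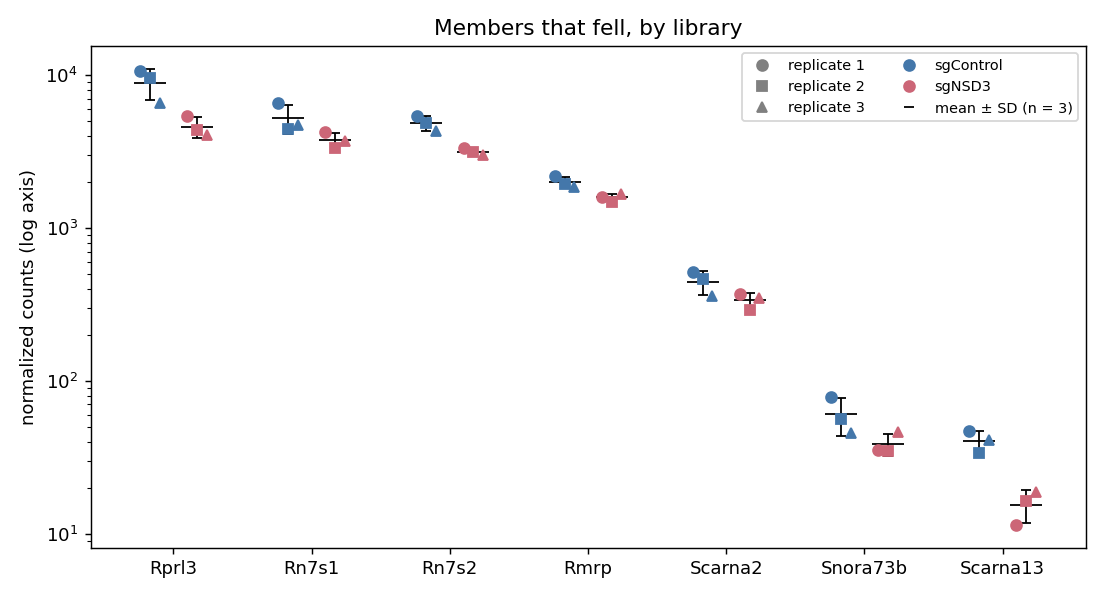
Normalized counts (log axis) of the 7 members that fell, with 1 point per library, marker shapes for replicates 1 to 3, and the mean with SD of each condition (n = 3). The conditions are apart for Rprl3, Rn7s1, Rn7s2, Rmrp and Scarna13 and overlap for Scarna2 and Snora73b.

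Among box H/ACA snoRNAs 1 of 11 tested fell and 0 rose, which is near the 6.43% of all tested genes lower and 5.43% higher. Snora73b, the abundant copy of U17, which takes part in ribosomal RNA precursor cleavage, lies inside Snhg3 (chromosome 4, 132352322 to 132352526). It had 78.6, 56.6 and 45.8 normalized counts in sgControl and 35.2, 34.6 and 46.1 in sgNSD3, and sgNSD3 replicate 3 overlapped sgControl replicate 3. The 1.56-fold lower level (log2 difference -0.61 ± 0.200, SE; limma adjusted p = 0.044) rested on few libraries. On the deposited log2 scale its difference was -0.11, and -0.07 without sgControl replicate 1. The call was lost without sgControl replicate 1 (adjusted p = 0.245) or 2 (0.0779), without sgNSD3 replicate 1 (0.156) or 2 (0.168), without a filter on low counts (0.0682) and with limma voom (0.0603). Its neighbour in the same host, Snora73a, had 1.02 to 5.24 normalized counts and was not tested. Snora31, in Tpt1, had 120.5, 111 and 134 normalized counts in sgControl and 106, 107 and 93.1 in sgNSD3. Its 3 sgNSD3 libraries lay below the sgControl ones, but it was not called (log2 difference -0.26, 95% interval -0.51 to -0.01, not adjusted over genes; limma adjusted p = 0.19). Snora30 lay higher in each sgNSD3 library, at 30.1 to 32.7 against 12.5 to 29.3 normalized counts, and was not called either (limma adjusted p = 0.264).

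Box C/D snoRNAs, counted here by a Snord symbol and so without the U3 genes, were the largest class, with 38 members. Of these 38, 19 were tested and 0 were called in either direction. At a mean of 8 to 100 normalized counts 2.4% of genes were lower and 3.49% higher, so 0 of 19 is near those shares. Over the 38 members the mean was lower in sgNSD3 for 16 and higher for 22, with a median log2 ratio of means of 0.02. The most abundant, Snord17, in Snx5, had 91.1, 111 and 99.8 normalized counts in sgControl and 95.4, 98.1 and 75.5 in sgNSD3, which overlap. Snord118, known as U8 and needed for maturation of the large ribosomal subunit RNAs, had 48.2, 56.6 and 46.8 in sgControl and 46.6, 43.3 and 41.2 in sgNSD3. Its sgNSD3 libraries were the lower ones by a small margin, and its log2 difference of -0.20 had a 95% interval of -0.57 to 0.16. Snord53 was the member nearest to a call in the higher direction, a remark made after its values were seen. It had 3.14, 8.64 and 3.05 normalized counts in sgControl and 14.5, 8.65 and 10.8 in sgNSD3. Each sgNSD3 library lay above each sgControl library, by a bare margin at the edge. It was not called (limma adjusted p = 0.0728) but passed the threshold without sgControl replicate 2 (0.0294).

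Of 8 tested U RNAs 0 were called, near the 2.4% of genes lower and 3.49% higher at a mean of 8 to 100 normalized counts. The mean of 8 of the 10 members was lower in sgNSD3, beside 49.9% of genes detected in all libraries. These 8 included the U3 genes Rnu3a, Rnu3b1, Rnu3b3 and Rnu3b4, with log2 ratios of means of -0.07, -0.44, -0.38 and -1.12. The Rnu3b genes lie close together on chromosome 11, and how reads of like copies were assigned is unknown. The 8 may therefore not be separate signals. Rnu1a1, a U1 gene of the spliceosome, had 106, 113 and 91.6 normalized counts in sgControl and 72.6, 90.4 and 94.1 in sgNSD3. The ranges overlap, and the log2 difference was -0.27 with a 95% interval of -0.56 to 0.01. Rnu2-10, a U2 gene, had 21.0, 19.2 and 24.4 normalized counts in sgControl and 15.5, 13.5 and 16.7 in sgNSD3, all below sgControl (limma adjusted p = 0.273). Rnu3a, a U3 gene, which despite its symbol encodes a nucleolar box C/D RNA, ranged from 36.6 to 43.2 in sgControl and from 27.9 to 52.0 in sgNSD3. Rnu11 and Rnu12, of the minor spliceosome, averaged 10.0 and 7.79 normalized counts, the second below the filter.

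For most uncalled members the data could not separate no change from a moderate one. Of the 39 tested and not called, 33 had a 95% interval of the log2 difference that included a 1.5-fold change in at least 1 direction, and 6 had an interval that excluded it on both sides. These limma intervals came from the 3 libraries per condition, with a spread estimated in part from other genes, and are not adjusted over genes. The 39 had a median log2 difference of 0.03, with 18 lower and 21 higher means. Over all 46 tested members the median was -0.07, beside 0.000743 over all tested genes.

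At the edge of the rule, 10 members had a single count in their lowest library. Among them were Snora78, with 1 to 4 counts per library, and Snord11, with 1 to 5. Just outside, 8 symbols had 0 counts in exactly 1 library, including Snord89 (0 to 4 counts) and Snora34 (0 to 7). The Y RNA genes Rny1 and Rny3, which bind the Ro60 protein, had at most 2 counts in any library and gave no member. The labels give no RNA library protocol, so how well short RNAs were captured is unknown, and a count of 0 says only that no read was assigned to the gene.

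Levels per length were compared with RefSeq lengths, since counts rise with gene length. Rprl3 had a mean of 28925 normalized counts per kilobase, Rn7s1 15096, Rn7s2 13478 and Rmrp 6517. The neighbours Rn7s1 and Rn7s2 overlapped across libraries in both conditions, while Rprl3 lay above both and Rmrp below both in every library of the same condition. The next member below Scarna2, whose annotated stretch of 61 bases may not match the counted gene, was Snora31, at 999.6 normalized counts per kilobase, and Rnu1a1 had 577. Members matched in RefSeq were 28 to 299 bases long, with a median of 88. Reads longer than a feature make such per-length values approximate.

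The share of each library's counts in the whole set was 0.124%, 0.109% and 0.0926% in sgControl and 0.0767%, 0.0656% and 0.0662% in sgNSD3. The conditions did not overlap, and 91.5% of member counts came from Rprl3, Rn7s1, Rn7s2 and Rmrp. The other 69 members took 0.00807% ± 0.000439 of counts in sgControl and 0.00697% ± 0.000161 in sgNSD3 (SD, n = 3). Box C/D snoRNAs took 0.00224% ± 4.58e-05 in sgControl and 0.00224% ± 0.00016 in sgNSD3 (SD, n = 3), with sgNSD3 libraries from 0.00206% to 0.00234%, on both sides of the sgControl ones. RNase P and MRP RNAs took 0.0521% ± 0.00975 and 0.0296% ± 0.00343. In bulk RNA, fewer cells of a type and less RNA per cell cannot be told apart. Set beside these shares were loci picked here by name, not by annotation class, as sources of ribosomal RNA reads. They took 10.6%, 8.42% and 7.99% of counts in sgControl and 9.47%, 9.31% and 9.37% in sgNSD3. The first of these, sgControl replicate 1, was also the library with the highest normalized count of each of the 7 members that fell. Without it Rprl3, Rn7s1, Rn7s2, Rmrp and Scarna13 were still called lower (5 of 7). Mitochondrial genes took 0.795% to 1.10% in sgControl and 0.802% to 0.830% in sgNSD3, and their part in the result was not tested.

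**Figure D3:**
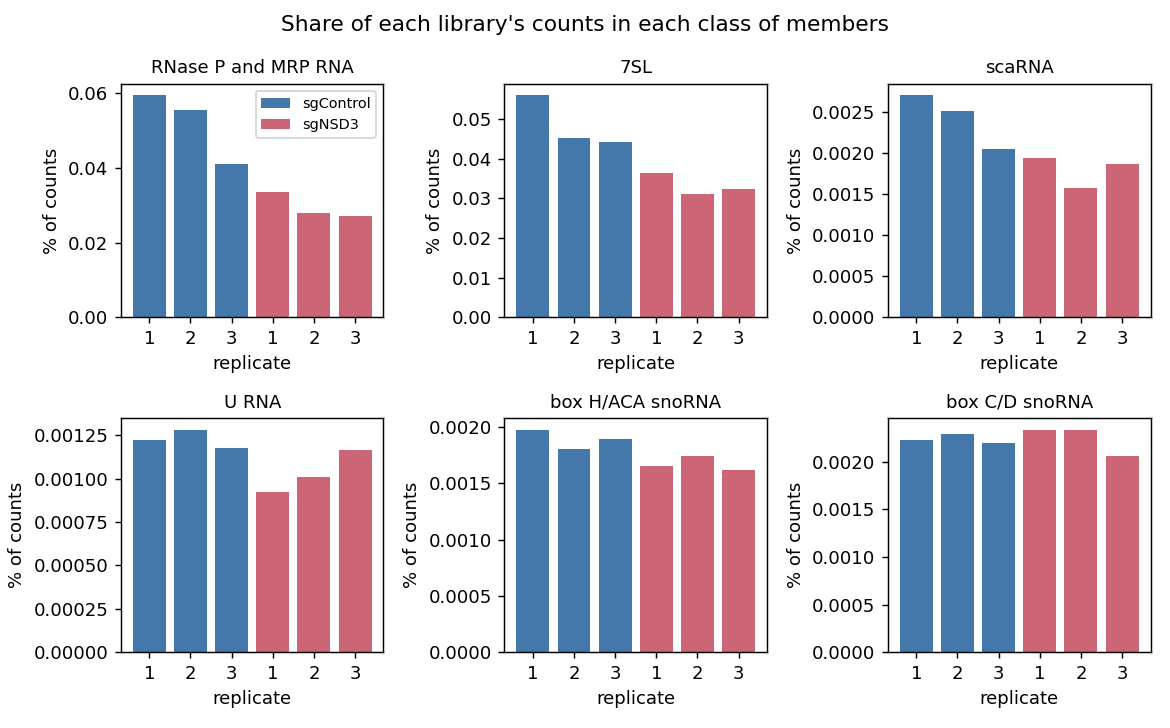
Share of each library's counts, in percent, taken by the members of each class, with 1 bar per library (replicates 1 to 3 of sgControl, then of sgNSD3) and a separate scale in each panel. RNase P and MRP RNAs and 7SL are lower in all 3 sgNSD3 libraries than in any sgControl library, and the box C/D snoRNA bars of the conditions overlap.

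Position in the genome was not used by the rule. Of 71 members matched in RefSeq, 11 lay in no other annotated gene, 52 in the span of exactly 1 and 8 in several. The strand of the members was not compared, so a spanning gene is a possible host and not an established one. A spanned member may still be transcribed on its own, and free-standing here means only that no other annotated gene spans it. Tex14, the single gene spanning the U RNA genes Rnu1a1, Rnu3b3 and Rnu3b4, was counted among the hosts, but was not shown to be their host. Of the 9 tested free-standing members 5 fell, with a median log2 ratio of means of -0.40, beside 6.43% of all genes lower. These 5 were Rprl3, Rn7s1, Rn7s2, Rmrp and Scarna2, with means of 391 to 6797 normalized counts. The other 4, Snord118, Rnu3a, Rnu2-10 and Rnu11, had means of 10.0 to 47.1 and were not called. Of the 32 tested members within 1 gene 2 fell, with a median of 0.02. The free-standing members were also the more abundant, with a median of 47.1 normalized counts against 11.0, so position and level cannot be told apart here, and the difference between the 2 groups was not tested.

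The possible hosts were mostly abundant genes, with a median mean of 1877 normalized counts. For 48 members the single spanning gene was in the RNA table, giving 36 hosts, of which 5 fell and 0 rose: the ribosomal protein genes Rps3, Rpsa, Rpl23, Rpl23a and Rps3a1. Of all tested genes 6.43% were lower, and of those with a mean of at least 1000 normalized counts, as these 5 had, 13.9%. Rpsa, a ribosomal protein gene that holds Snora62, was 1.20-fold lower (30098 ± 735 against 25026 ± 360.2 normalized counts, SD, n = 3; limma adjusted p = 1.91e-07). Snora62 itself had 30.5 to 35.6 normalized counts in sgControl and 26.9 to 33.3 in sgNSD3, which overlap, with a 95% interval of the log2 difference of -0.53 to 0.33. Of 3 tested members in hosts that fell, 0 were called. Across 28 tested members with a host, Spearman's rho of the 2 log2 ratios was 0.20. This describes members that share libraries and, in part, hosts, and whose own ratios carry the larger counting error.

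Scarna13 was also set against its possible host. Snhg10, the long noncoding host, had 18.9, 24.0 and 21.4 normalized counts in sgControl and 19.7, 20.2 and 16.7 in sgNSD3 (limma adjusted p = 0.727), so its ranges overlap where those of Scarna13 do not. The log2 level of Scarna13 relative to Snhg10 was 0.88 ± 0.405 in sgControl and -0.29 ± 0.445 in sgNSD3 (SD, n = 3), a difference of -1.17. All 3 sgNSD3 libraries lay below the sgControl ones, which gives the smallest p this design allows (two-sided exact permutation p = 0.1) and cannot pass the 0.05 threshold. Scarna13 was looked at because it had fallen. Snora73b relative to Snhg3 differed by -0.39, with overlapping libraries (two-sided exact permutation p = 0.2). Snhg3 had 180.1 ± 15.4 normalized counts in sgControl and 155 ± 10.3 in sgNSD3 (SD, n = 3; limma adjusted p = 0.197).

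**Figure D4:**
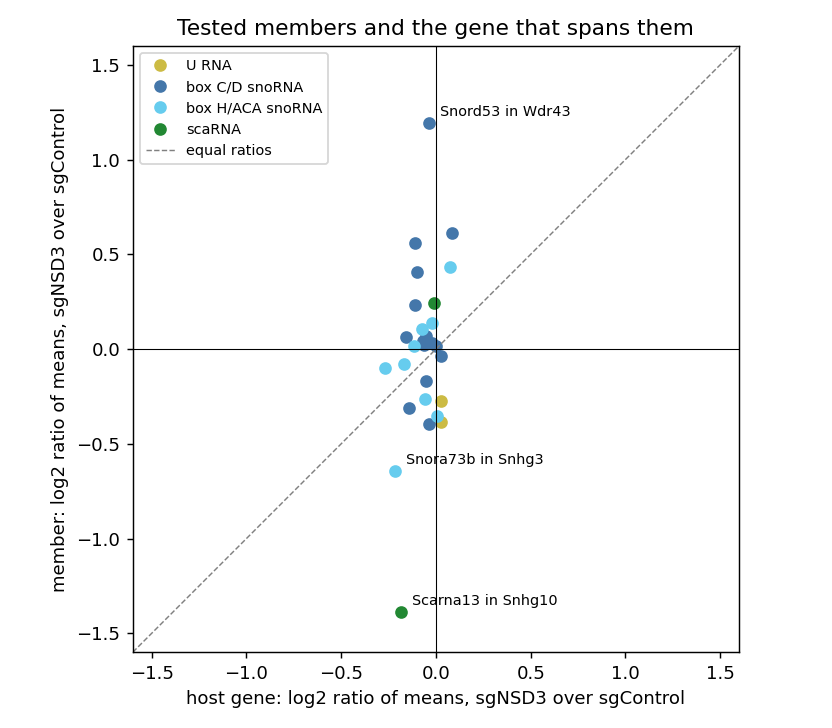
Log2 ratio of mean normalized counts, sgNSD3 over sgControl, of the 28 tested members against that of the gene that spans each, coloured by class, with a dashed line where both ratios are equal. Hosts lie close to 0 while members spread from -1.39 (Scarna13) to 1.19 (Snord53).

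Protein partners of these RNAs changed in small numbers. Over 10 lists with 125 tested genes, chosen with earlier results known, 9 fell and 1 rose, beside 6.43% lower and 5.43% higher over all genes. In the H/ACA core, 2 of 4 fell: Gar1, 1.24-fold lower (limma adjusted p = 0.0365), and Nhp2, 1.15-fold lower (0.0276). Of the 4 box C/D core genes, the 13 of snoRNP assembly and Cajal bodies, the 30 of RNA polymerase III and its factors and the 4 of Y RNA binding, 0 were called. RNase P and MRP proteins had 1 of 11 lower, Pop4, from 473 ± 21.4 to 399.6 ± 9.63 normalized counts (SD, n = 3; limma adjusted p = 0.0126). Signal recognition particle proteins had 1 of 8 lower, Srp9, which binds the Alu end of 7SL (1.15-fold; limma adjusted p = 0.0442). Among 18 genes of RNA trimming and decay Exosc10, the nuclear exosome nuclease that trims snoRNA ends, was 1.15-fold lower (0.00248) and Exosc1 1.18-fold lower (0.0114). Snrpc and Eftud2 fell among 19 spliceosomal genes (1.15-fold and 1.08-fold), and in Integrator Ints14 was 1.16-fold lower and Ints1 1.09-fold higher. Exosc10 was called without any 1 library, while the calls of the other 9 genes were lost when at least 1 library was left out. These were Gar1 without any library but sgControl replicate 2, Ints1 without any but sgControl replicate 1, and Nhp2 without sgControl replicate 2 or any sgNSD3 replicate. Pop4 and Snrpc lost their calls when sgNSD3 replicate 1, sgNSD3 replicate 3 or sgControl replicate 2 was left out, and Srp9 when sgNSD3 replicate 1, sgNSD3 replicate 3 or sgControl replicate 1 was. Leaving out sgNSD3 replicate 1, sgNSD3 replicate 2 or sgControl replicate 3 ended the call of Eftud2. For Exosc1 it was sgNSD3 replicate 3 or sgControl replicate 2, and for Ints14 sgNSD3 replicate 3. In settings that kept all libraries, Ints1 was lost in 8, Eftud2 in 6, Srp9 in 4 and Nhp2 in 1.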

How the data were processed

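Total RNA from 3 sgControl and 3 sgNSD3 libraries was used, numbered by sample title; the deposited columns number sgNSD3 replicates 1, 2 and 3 as 3, 1 and 2. The submitters' processing notes name mm10 and the tools HISAT2, featureCounts and DESeq2, without versions or settings. The authors deposited log2 values that lie on a variance-stabilised scale with a minimum of 8.45. The inverse of that transform, computed here, returned whole numbers (tolerance 0.05) of a step particular to each library for 100% of values above the minimum. These recovered counts, divided by the implied size factors, are the normalized counts. Depth limits the precision of low members, and the spread between libraries that of abundant ones.

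With R 4.3.3, limma 3.58.1 (lmFit, then eBayes with trend) tested the deposited log2 values of 18278 genes with a mean of at least 8 normalized counts, adjusted over all of them. Log2 differences, SE and intervals come from limma on log2(normalized count + 1), and folds are ratios of means. The test was checked on simulated counts. Positions came from RefSeq (GRCm38.p6), matched by symbol. The authors deposited a signed score per gene body for each chromatin column, without stating what was set against what. There were 0 other value columns.

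Members and lists were chosen with earlier results of these data known. Named were all called members, the 10 with the highest mean, the most abundant of each class, those at the detection edge, hosts of named members, and up to 3 called genes per list; other members were picked after their values were seen. Alternatives were another scale, pseudocount, filter, normalization, model, a replicate block, and leaving out each library. Over all tested genes, same-numbered libraries did not deviate together (r of -0.0134 to 0.0454 by title number). No pair of libraries agreed within counting error (chi-square per degree of freedom at least 1.30). The H3K36me2, H3K27me3 and IgG libraries gave no values per library and entered no test.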

Additional observations from a re-analysis of the deposited data

How the results depend on the processing

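Over 17 alternatives, the calls of Rprl3, Rn7s1, Rn7s2 and Rmrp were kept in every one, and that of Scarna13 in the 16 that tested it. The count of members lower was 5 to 7 throughout. Leaving out 1 library in turn gave 0 to 1 members higher (1, Snord53, without sgControl replicate 2), 641 to 993 of all genes higher and 706 to 1164 lower, beside 993 and 1176 with all libraries. The counts over all genes moved by over 1.5 times without sgNSD3 replicate 1 (644 higher, 706 lower), 2 (641 and 727) or 3 (658 and 774), and the cause was not tested. Protein-partner genes numbered 0 to 2 higher and 2 to 13 lower, with 5 lower without sgControl replicate 2, 3 without sgNSD3 replicate 1 and 2 without sgNSD3 replicate 3. The count of protein-partner genes higher, 1, became 0 with log2(normalized count + 8), without a filter, with quantile normalization, with library totals, with limma voom and with a replicate block by column number. It became 2 with the filter at 32 normalized counts, with the block by title number and with nuclear non-ribosomal totals, a setting chosen after seeing the data; the cause was not tested. The replicate block by title number called 1119 genes higher and 1333 lower, that by column number 920 and 1087, and neither changed the call of a member that fell. Over all tested genes no pairing showed, with r of -0.0657 to 0.0546 for any sgControl and sgNSD3 library. Among members that fell, the block by title number lowered the limma adjusted p of Rprl3 from 3.54e-07 to 2.27e-26. It lowered that of Rn7s1 from 0.000391 to 2.29e-15 and that of Scarna2 from 0.00804 to 0.00018. The block by column number gave 3.62e-07, 0.000232 and 0.00981. Whether these members pair by title number was not tested. The share of counts in members differed by -0.0388 percentage points, and its alternatives stayed within 1 SD. The filter on low counts kept 27 of 73 members out of the test.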

Other observations

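None of the 73 members is in the authors' deposited table of chromatin scores, whose rows are gene bodies, but 30 of their possible hosts are. In the authors' deposited table the 30 hosts had median H3K36me2 scores of 0.0586 and 0.112 in the 2 columns, beside 0.0757 and 0.125 over all 22470 gene bodies. Of the 30 hosts, 28 were above 0 in each H3K36me2 column of the authors' deposited table, or 93.3%, beside 89.4% and 92.4% of all gene bodies. For H3K27me3, 2 of the 30 were above 0 in the authors' deposited table, or 6.67%, beside 31.5% of all gene bodies, with medians of -0.0467 and -0.0258. These scores give no direction between the conditions, and the hosts were not compared with genes of like level.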
